A study of Mus musculus with 16 samples.

Results

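The genes described are Spp1, which encodes osteopontin, and 7 genes whose products bind it: Cd44 and the integrin subunit genes Itgav, Itgb1, Itgb3, Itgb5, Itga4 and Itga9. These 8 genes, of 19822 in the tables, were chosen by their measured UMI levels across the cell classes of both models in this series, so those levels are given as descriptions and without tests. All 8 were found, with total counts from 79 unique molecular identifiers (UMIs) for Itga4 to 31178 for Spp1. The data are Drop-seq counts from end-stage mammary tumours of female FVB/n mice of 2 models of triple-negative breast cancer, neither of them treated. WB1P mice are WapCre;Brca1F/F;Trp53F/F, and WB1P-Myc mice carry the same alleles together with Col1a1invCAG-Myc-IRES-Luc, a Myc construct that Cre switches on. The Wap promoter drives Cre in mammary epithelium, so by design both models lose Brca1 and Trp53 in cells of that lineage. Live dapi-negative single cells were sorted, and each model was loaded as 1 cell suspension from which 4 droplet fractions became libraries. The fractions are therefore treated as technical repeats, and each model was its own loading, so loading and model cannot be told apart. The study's text names more than 1 mouse per model but does not assign the fractions to mice, so no spread between mice can be read. With 1 suspension per model no test was made between models, and all intervals are 95% and cover counting error only.

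Osteopontin is a secreted phosphoprotein of mineralised matrix that many tumours, macrophages and activated fibroblasts also make. Its RGD motif is bound by αv integrins paired with β1, β3 or β5, a neighbouring motif exposed by thrombin cleavage is bound by α4β1 and α9β1, and CD44, the main receptor of hyaluronan, binds it without an RGD motif. In mammary tumours it is known as a product of carcinoma cells and of tumour-associated macrophages, and Runx and Ets family factors are known to act on its promoter.

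Spp1 lies on chromosome 5 at chr5:104435111-104441053 on the plus strand (RefSeq, GRCm38.p6, the assembly also called mm10). The 250 bases that end at its start site, chr5:104434861-104435110, are shown because, of the 8 genes, Spp1 differed most between the models in epithelial-like cells, and because factors that read such motifs were among the genes measured. Capitals mark the letters ACCACA, a core read by Runx factors, and AGGAAG or its reverse complement CTTCCT, a core read by Ets factors.
Spp1 promoter: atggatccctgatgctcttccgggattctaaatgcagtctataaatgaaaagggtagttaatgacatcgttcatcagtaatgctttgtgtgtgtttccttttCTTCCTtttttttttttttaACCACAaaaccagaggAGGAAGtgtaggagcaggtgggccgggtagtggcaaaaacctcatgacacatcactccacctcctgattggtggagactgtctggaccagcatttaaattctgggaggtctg
The Runx letters begin 128 bases before the start site, and the Ets letters begin 148 and 112 bases before it, with no overlap. Searched on both strands, the Runx letters were found in 14.0% of 32851 RefSeq mouse promoters of this kind, the Ets letters in 29.5% and both in 4.35%, so these matches are a description of the sequence.

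The 8 HiSeq tables held 256985 to 1918672 UMIs for WB1P and 3814562 to 4960334 for WB1P-Myc. Barcodes with 450 to 4000 genes and less than 20% mitochondrial UMIs numbered 1307 in WB1P and 3491 in WB1P-Myc. WB1P fraction 1 stood apart, with 65 cells of which 60 were epithelial-like, and 21 of these 65 barcodes were called doublets against 1 to 9 barcodes in each other fraction. Cells were clustered without the 8 genes and named from marker lists. WB1P had 675 epithelial-like, 377 macrophage-like, 217 fibroblast-like and 38 endothelial-like cells. WB1P-Myc had 1056, 701, 274 and 72 of these, together with 1131 Schwann-like cells and 257 cells of an unnamed cluster led by Slc38a4 and Dlk1. The epithelial-like class joined 2 clusters that split by model: cluster 1 held 656 WB1P and 9 WB1P-Myc cells, and cluster 5 held 19 and 1047. Cluster 5 led with 8 epithelial markers, but none stood among its top 10 genes, and the 14 epithelial markers summed to 3149 CPM (counts per 1000000 UMIs) in the WB1P-Myc class against 6104 in the WB1P class. The Schwann-like cluster led with 5 Schwann markers but also with 7 cartilage markers, and the whole cartilage list summed to 4167 CPM against 3364 for the whole Schwann list.

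In WB1P, epithelial-like cells were the main source of Spp1. Their level was 8836 CPM (interval 8708 to 8966), with 4246, 10332, 6569 and 9649 in fractions 1 to 4. They held 74.2% of the model's Spp1 UMIs and made up 51.6% of its cells. With 2040715, they were also the WB1P class with the most UMIs of all genes. Macrophage-like cells stood at 4629 CPM (4466 to 4796), with 1365, 5908, 4674 and 3650.5 by fraction, and were below the epithelial-like cells in every fraction. The log2 ratio of macrophage-like over epithelial-like was -0.93 (-0.99 to -0.88). Without fraction 1 the epithelial-like share was 73.8% and this ratio -0.96. With classes set from marker UMIs and no clustering the share was 44.0%, and the highest WB1P level was then that of a chondrocyte-like class, 7669 CPM.

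Fibroblast-like cells of WB1P reached 5474 CPM (5286 to 5668), with 0, 3796, 7459.8 and 4976 by fraction, the 0 resting on 2 cells. Nearly all of it lay in the myCAF-like subset (126 cells), the contractile, matrix-making type of cancer-associated fibroblast. These stood at 8319.5 CPM, with 4929, 11012 and 9149 in fractions 2 to 4, close to the epithelial-like level and above it in 1 of those 3 fractions. The iCAF-like subset (88 cells), the Cxcl12- and complement-expressing type, stood at 658 CPM. Endothelial-like cells had 26 Spp1 UMIs, 422 CPM (276 to 618), from 0 in fraction 1 to 991 in fraction 4, and 1 cell held 13 of the 26.

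In WB1P-Myc the order was different. Macrophage-like cells had the highest level, 2463 CPM (2378 to 2549), with 2216, 2191, 2174 and 3378 by fraction. Fibroblast-like cells stood at 964 CPM (405, 898, 1659 and 801) and Schwann-like cells at 485 CPM (443, 666, 265 and 549). Epithelial-like cells stood at 112 CPM (101 to 124), with 81.3, 136, 71.2 and 168 by fraction, the unnamed cluster at 61.7 and endothelial-like cells at 45.6. Macrophage-like and fibroblast-like levels did not overlap between fractions, nor did those of Schwann-like and epithelial-like cells. Fibroblast-like and Schwann-like levels did overlap, and their order was the opposite in the MiSeq run (177 and 698 CPM). The 177 CPM rests on 21 UMIs in 72 cells of a MiSeq cluster that also led with 7 endothelial markers. The log2 ratio of macrophage-like over epithelial-like was 4.46 (4.30 to 4.61), and 4.77, 4.01, 4.93 and 4.33 by fraction.

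**Figure D1:**
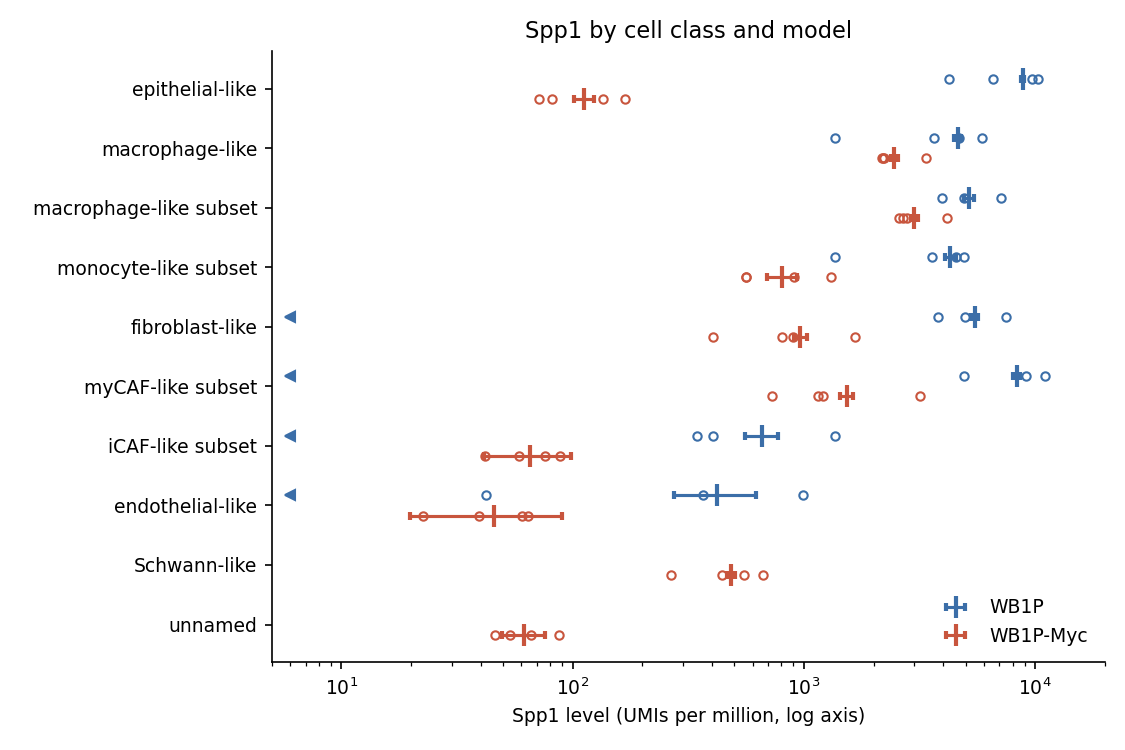
Spp1 level in CPM on a log axis for each cell class and subset, in WB1P (blue) and WB1P-Myc (red). Vertical ticks are pooled values with 95% Poisson intervals, circles are single fractions and left-pointing triangles are fractions at 0. Epithelial-like cells are at 8836 in WB1P and 112 in WB1P-Myc, while macrophage-like cells are at 4629 and 2463.

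Epithelial-like cells were the class with the largest difference in Spp1 between models. The log2 ratio of WB1P-Myc over WB1P was -6.30 (-6.45 to -6.15), 78.7-fold lower, and no fraction of one model overlapped one of the other. With each cell thinned to 600 UMIs it was -5.55, and over 15 alternatives it ran from -6.63 to -5.55. It was -2.51 (-2.61 to -2.40) in fibroblast-like cells, 5.68-fold lower, but -4.55 with the MiSeq tables (on 21 WB1P-Myc UMIs) and -3.57 with classes from marker UMIs. In the myCAF-like subset it was -2.44, and in both the class and the subset WB1P fractions 2 to 4 lay above every WB1P-Myc fraction. In macrophage-like cells the ratio was -0.91 (-0.98 to -0.84), 1.88-fold lower, and fractions overlapped only through WB1P fraction 1, which had 2 such cells. Over all cells Spp1 stood at 7264 CPM in WB1P and 575 in WB1P-Myc, a log2 ratio of -3.66.

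The epithelial-like levels were also read within each cluster. The 9 WB1P-Myc cells that fell into cluster 1, which was almost wholly WB1P, had 106 Spp1 UMIs, 4691 CPM (3841 to 5673), and 8 of them had at least 1. Macrophage markers summed to 1770 CPM in these 9 cells and monocyte markers to 1947. The sums were 350 and 706 in the WB1P cells of cluster 1, and 304 and 246 in the WB1P-Myc cells of cluster 5. The monocyte list is not particular to monocytes, at 2689 CPM in WB1P-Myc fibroblast-like cells. The part of these markers in the level was not tested. The 9 cells carried 106 of the 380 Spp1 UMIs of the class, and the 1047 WB1P-Myc cells of cluster 5 stood at 81.5 CPM. The 19 WB1P cells of cluster 5 stood at 8675 CPM, but this came mainly from fraction 4 (28827 CPM, against 1314 and 399 in fractions 2 and 3, on 22 and 1 UMIs). In fractions 2 and 4 these levels lay above the WB1P-Myc cells of cluster 5 in every fraction (70.2 to 95.4 CPM), and the 1 UMI of fraction 3 is too few to compare. Of the 19 cells, 2 held 80.8% of the Spp1 UMIs, with 134 in the highest.

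By cell, Spp1 was seen in a larger share of WB1P than of WB1P-Myc cells in each class that both models had. In WB1P-Myc macrophage-like cells the 71 of 701 cells with the most Spp1 held 67.4% of the class's Spp1 UMIs. The like values were 52.2% for 38 of 377 macrophage-like and 60.2% for 68 of 675 epithelial-like cells of WB1P. At least 1 Spp1 UMI was seen in 89.5% of WB1P epithelial-like cells (median 8 UMIs, highest 934), 76.7% of macrophage-like and 59.9% of fibroblast-like cells. In WB1P-Myc the shares were 52.9% of macrophage-like, 27.0% of fibroblast-like, 15.4% of Schwann-like and 12.2% of epithelial-like cells. After thinning every cell to 600 UMIs, which left out 1 WB1P-Myc cell, these shares were 76.9%, 60.5% and 36.9% in WB1P and 37.5%, 12.8%, 6.54% and 5.59% in WB1P-Myc. Endothelial-like cells gave 15.8% in WB1P and 4.17% in WB1P-Myc after thinning. Their median depths were 1365 and 1923.5 UMIs, against 1834 and 1967 in epithelial-like cells. Whether endothelial-like cells make Spp1 themselves was not tested. The WB1P-Myc epithelial-like and Schwann-like shares were both near that of the 72 endothelial-like cells, and neither share is read as expression. In both classes a few cells stood out: 15 epithelial-like cells with at least 5 Spp1 UMIs held 56.6% of that class's total.

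**Figure D2:**
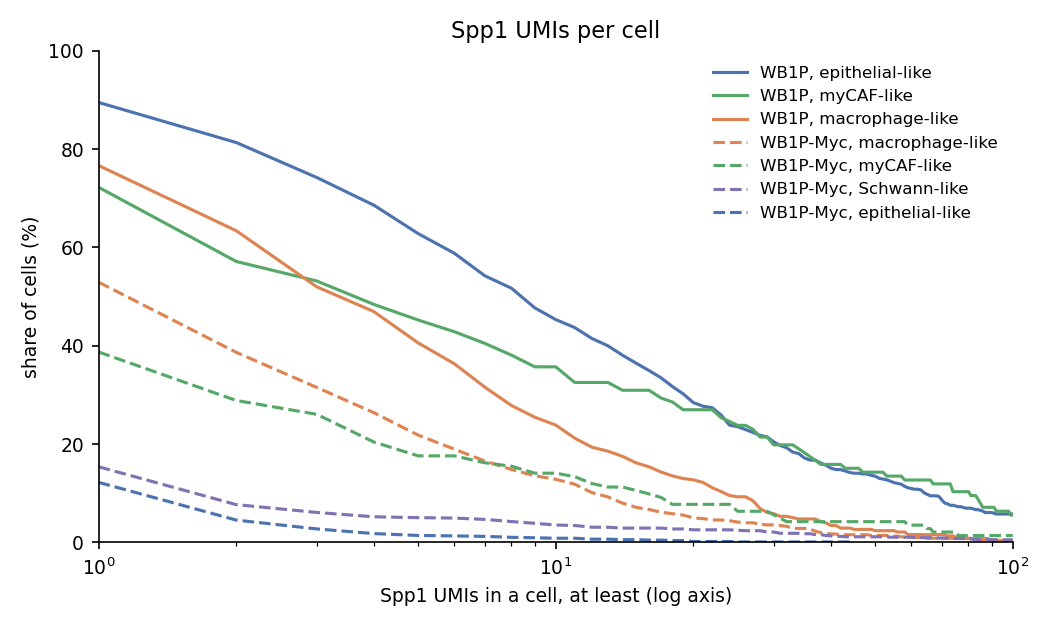
Share of cells (%) with at least the number of Spp1 UMIs on the log x axis, without thinning, for WB1P (solid) and WB1P-Myc (dashed) and colours by class. At 1 UMI the WB1P epithelial-like curve starts at 89.5% and the WB1P-Myc one at 12.2%, and at 10 UMIs they stand at 45.3% and 0.852%.

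The share of Spp1 UMIs by class reads differently from the level, because it also depends on the number of cells in a class and on their depth. In WB1P-Myc the median depth was 3168 UMIs in Schwann-like and 1494 in macrophage-like cells, which held 4695056 and 1295827 UMIs of all genes. There macrophage-like cells held 46.5% of Spp1 UMIs (47.7, 39.6, 47.8 and 51.1% by fraction) and were 20.1% of cells. With each cell thinned to 600 UMIs they held 55.7%. Schwann-like cells held 33.1% (40.4, 41.2, 18.2 and 30.8% by fraction) and were 32.4% of cells, fibroblast-like cells held 13.5% and epithelial-like cells 5.53%. Macrophage-like and Schwann-like shares overlapped between fractions, and in fraction 2 the Schwann-like share was the higher. Tables from the MiSeq run of the same fractions gave another order by share: Schwann-like cells held 59.5% (498 cells, 698 CPM) and macrophage-like cells 35.0% (102 cells), though macrophage-like cells kept the highest level, 3184 CPM. In that run 14 Schwann-like cells with at least 5 Spp1 UMIs held 96.0% of the Schwann-like total. In WB1P the MiSeq epithelial-like share was 80.7%, at 8080.2 CPM. The 2 runs listed mostly different barcodes: 59 barcodes were shared between the runs over the 8 fractions, against 35 between different fractions of the same run over 56 pairs.

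**Figure D3:**
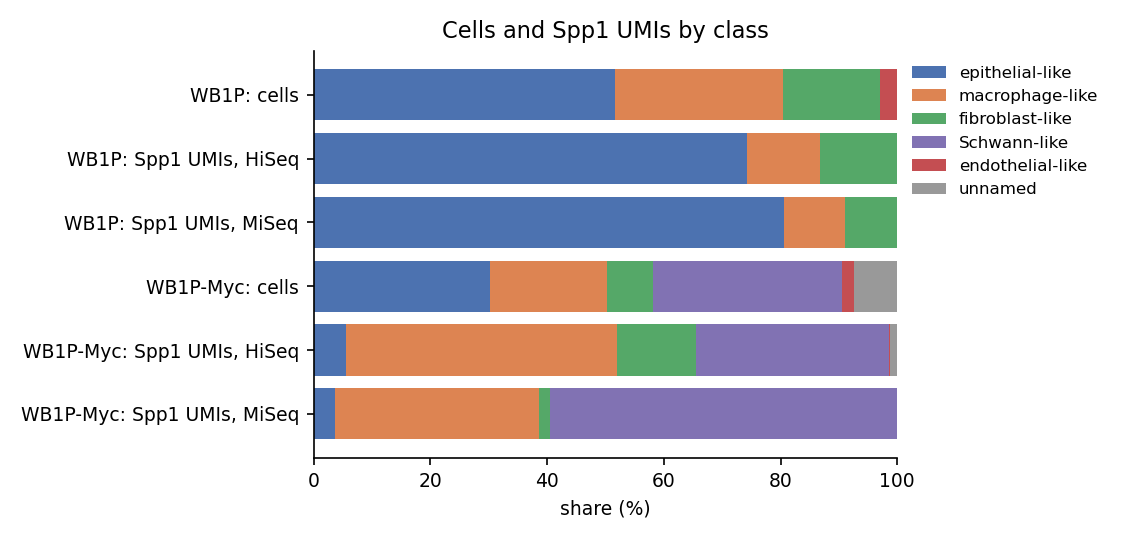
Stacked bars of the share (%) of cells and of Spp1 UMIs by class, for each model, with the HiSeq and the MiSeq tables. No endothelial-like or unnamed cluster was separated in the MiSeq tables. In WB1P epithelial-like cells are 51.6% of cells and 74.2% of Spp1 UMIs, and in WB1P-Myc macrophage-like cells are 20.1% of cells and 46.5% of Spp1 UMIs.

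Within the macrophage-like class a macrophage-like subset (175 WB1P and 491 WB1P-Myc cells) was separated from a monocyte-like subset (191 and 163) that had Ccr2 and Plac8 and was led by MHC class II genes and Il1b. None of its top 10 genes was a monocyte marker, and dendritic markers summed to 514 CPM in it in WB1P and 979 in WB1P-Myc, against 6.55 and 15.1 in the macrophage-like subset. Monocyte markers summed to 1854 CPM in it in WB1P, under the 2885 of WB1P fibroblast-like cells, and to 3802 in WB1P-Myc. Macrophage markers summed to 22886 and 17646 CPM in it. Spp1 stood at 5171 CPM in the macrophage-like and 4304 in the monocyte-like subset in WB1P, a log2 ratio of 0.26 (0.16 to 0.37). In WB1P-Myc it stood at 3005 and 806 CPM, a ratio of 1.90 (1.68 to 2.12), above 0 in each of 4 fractions. The part of the dendritic, monocyte and macrophage markers in these levels was not tested. The Spp1 level of the monocyte-like subset, whose marker sums also differed, differed between models by -2.42 (-2.65 to -2.19) with no overlap of fractions. That of the macrophage-like subset differed by -0.78 with overlap. T or NK-like cells, 11 and 47 of them, stood at 244 and 432 CPM on 3 and 35 UMIs. Macrophage markers summed to 326 and 2098 CPM in these cells, and their part in the Spp1 level was not tested.

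Genes known from Spp1-rich macrophages were compared between macrophages with and without a Spp1 UMI. Cells of the macrophage-like subset were split at the first Spp1 UMI after thinning, 220 with and 271 without in WB1P-Myc and 113 with and 62 without in WB1P. Of the genes with at least 50 UMIs, 6.24% of 1041 in WB1P-Myc and 8.57% of 315 in WB1P had an interval above 0, as did 6 of the 10 listed genes that could be counted in WB1P-Myc and 3 of 6 in WB1P (Arg1, Lgals3 and Apoe). Arg1, the arginine-degrading enzyme of alternatively activated macrophages, was at 750.0 against 73.8 CPM in WB1P-Myc, a log2 ratio of 3.35 (2.48 to 4.35), and at a ratio of 1.92 (1.00 to 2.98) in WB1P. Lgals3, the lectin galectin-3, had ratios of 0.51 and 0.94, and both genes were higher in every fraction with such cells. In WB1P-Myc the ratios of Gpnmb (1.67), Cd9 (1.00), Fabp5 (0.69) and Ctsb (0.27) also had intervals above 0, while those of Apoe, Cd63, Lpl and Trem2 spanned 0. Ctsb went the other way in WB1P, at -0.34 (-0.62 to -0.05). The mannose receptor gene Mrc1, singled out after its values were seen, was lower with Spp1 in WB1P-Myc, at -1.51 (-1.97 to -1.08), and in 0 of 4 fractions higher. Among the receptors, Cd44 was at a ratio of 0.92 (0.33 to 1.52) in WB1P-Myc, higher in 3 of 4 fractions, and at -0.28 (-1.69 to 1.21) in WB1P. The summed epithelial markers were 189 against 154 CPM in the WB1P-Myc cells, a ratio of 0.30 whose interval spanned 0.

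**Figure D4:**
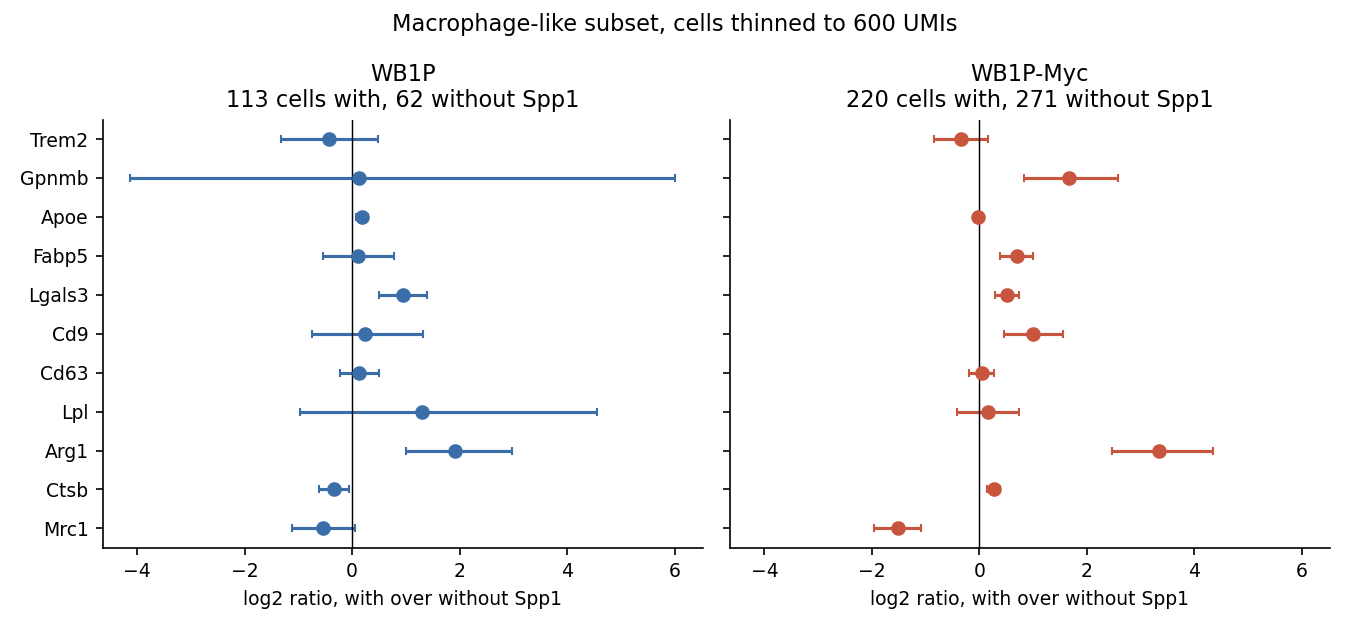
Log2 ratio of CPM in cells with over cells without a Spp1 UMI, for the 10 genes known from Spp1-rich macrophages and Mrc1, in the macrophage-like subset of WB1P (left) and WB1P-Myc (right), thinned to 600 UMIs. Bars are 95% counting intervals. Arg1 is the farthest to the right in both models, at 1.92 and 3.35.

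Within fibroblast-like cells the Spp1 level was higher in the myCAF-like than in the iCAF-like subset in both models. A Spp1 UMI was seen in 72.2% of myCAF-like cells in WB1P and 38.7% in WB1P-Myc, where 15 of 142 cells held 82.6% of the subset's Spp1 UMIs. The log2 ratio of myCAF-like over iCAF-like in WB1P was 3.66 (3.42 to 3.92). The WB1P-Myc subsets stood at 1529 CPM (726, 1204, 3187 and 1152 by fraction) and 65.5, a ratio of 4.54 (3.95 to 5.21). Myofibroblasts and pericytes share markers, and 25 WB1P and 33 WB1P-Myc cells of this subset had the pericyte gene Rgs5. In WB1P the cells with Rgs5 stood at 1851 CPM, with 73 of their 87 Spp1 UMIs in 1 cell, and those without at 9273. In WB1P-Myc the levels with and without Rgs5 were 1981 and 1453. The first rests on 1 cell of fraction 3 (8577 CPM there), which held 157 of the 167 Spp1 UMIs. Only 4 of these 33 cells had any Spp1 UMI. The same cell is part of the 3187 CPM of the whole subset in fraction 3. Thinned myCAF-like cells were split in the same way, and the genes named were picked from the marker lists after their values were seen. The other markers are not given here, so the named genes do not stand for the myCAF list as a whole. Of genes with at least 50 UMIs, 10.8% of 241 in WB1P and 6.72% of 268 in WB1P-Myc had an interval above 0. In WB1P, Mmp13, the collagenase of bone and wound fibroblasts, had 90 UMIs in the 62 cells with Spp1 and 2 in the 64 without, a log2 ratio of 5.54 (3.64 to 8.61), and was higher in each of 3 fractions. In the WB1P-Myc subset Mmp13 had 0 UMIs in the thinned cells. Col12a1, a fibril-associated collagen, had a ratio of 1.10 (0.38 to 1.87) in WB1P, while Acta2, the smooth-muscle actin of myofibroblasts, had ratios of -0.56 and -0.96 in the 2 models.

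Spp1 in the Schwann-like cells of WB1P-Myc lay in few cells, in which cartilage and macrophage markers were both higher than in the cells without Spp1. Of 1131 cells, 57 had at least 5 Spp1 UMIs and these held 92.9% of the class's Spp1, with 17, 15, 12 and 13 such cells by fraction and up to 207 UMIs in 1 cell. The cartilage markers summed to 9968 CPM in these 57 cells, 5136 in the 117 cells with 1 to 4 Spp1 UMIs and 3625 in the 957 cells with none. The Schwann markers ran the other way, at 1275, 2683 and 3614 CPM. Among thinned cells, Col2a1, the main collagen of cartilage, was at a log2 ratio of 1.19 (1.00 to 1.38) in cells with Spp1. Macrophage markers moved with Spp1 too, at 1243, 444 and 145 CPM in the 3 groups of cells, and their part in the result was not tested. Dcn, a fibroblast proteoglycan picked after its value was seen, as Col2a1 was, had a ratio of 2.63 (1.98 to 3.24). Of 2315 genes counted in this split, 5.7% had an interval above 0.

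Spp1 was also read in barcodes with few genes, beside the epithelial markers. In WB1P it stood at 2674 CPM in 1605 barcodes with fewer than 200 genes. Per UMI of the 14 epithelial markers, such barcodes had 1.09 Spp1 UMIs, epithelial-like cells 1.45, iCAF-like cells 1.75 and endothelial-like cells 2.17, whereas macrophage-like cells had 14.4 and myCAF-like cells 42.3. In WB1P-Myc, barcodes with at least 200 but under 450 genes had 0.232, endothelial-like cells 0.400 and iCAF-like cells 0.451, against 12.6 in both macrophage-like and myCAF-like cells. After subtracting a profile of the shallowest barcodes of each model (50 in WB1P-Myc), 324 CPM was left in WB1P endothelial-like, 4750.0 in WB1P macrophage-like, 92.6 in WB1P-Myc epithelial-like and 2595 in WB1P-Myc macrophage-like cells. The low WB1P-Myc levels moved most, to 27.1 CPM in the unnamed cluster and 8.79 in endothelial-like cells. The WB1P-Myc profile held 28363 UMIs with Spp1 at 282 CPM, so the WB1P-Myc values after subtraction rest on few Spp1 UMIs. Only 3 WB1P-Myc barcodes had fewer than 200 genes, so most of the 50 had more. The part of free RNA in each level was not tested further.

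Cd44 (chromosome 2, chr2:102811141-102901669) encodes the hyaluronan receptor that also binds osteopontin. In WB1P it was highest in epithelial-like cells, at 253 CPM (232 to 276), with 146, 274, 246 and 251 by fraction, followed by macrophage-like (193) and fibroblast-like cells (185), whose intervals overlapped. In fractions 2 to 4 the epithelial-like level was above both. In WB1P-Myc macrophage-like cells were highest at 323 CPM (348, 367, 278 and 296 by fraction), then fibroblast-like cells at 199, while epithelial-like cells had 55.2 (46.3, 75.6, 49.0 and 52.3). The log2 ratio of WB1P-Myc over WB1P was -2.20 (-2.45 to -1.95) in epithelial-like and 0.74 (0.45 to 1.04) in macrophage-like cells, both with no overlap of fractions. It was 0.10 (-0.25 to 0.45) in fibroblast-like cells. The monocyte-like subset stood at 512 CPM in WB1P-Myc and 183 in WB1P, a ratio of 1.48 (1.03 to 1.95). Its marker sums also differed between the models, and their part in this ratio was not tested.

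Itgav (chr2:83722303-83806917) encodes the αv subunit common to the RGD-binding receptors of osteopontin. Its level was 67.0 CPM (47.6 to 91.5) in fibroblast-like, 51.4 (35.6 to 71.8) in macrophage-like and 26.0 in epithelial-like cells of WB1P. The intervals of the fibroblast-like and macrophage-like levels overlapped, as did their fractions 2 to 4. In WB1P-Myc macrophage-like cells had 97.2 CPM (80.2, 123, 111 and 71.4 by fraction), fibroblast-like cells 77.0 and epithelial-like cells 15.9. The ratio between models was 0.92 (0.36 to 1.51) in macrophage-like cells, with no overlap of fractions, and -0.70 (-1.28 to -0.13) in epithelial-like cells, with overlap.

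Itgb1 (chr8:128685654-128733579) encodes the β1 subunit, which pairs with αv, α4 and α9 and with many others. Endothelial-like cells had 1315 CPM of it in the first model and 1671 in the second, and fibroblast-like cells 1173 and 1079, the highest levels of any class. Within the latter the myCAF-like subset stood at 1541 and 1339 CPM and the iCAF-like subset at 522 and 618, log2 ratios of 1.56 and 1.11. In epithelial-like cells it was 595 CPM in WB1P (616, 632, 551 and 587) and 248 in WB1P-Myc (234, 269, 239 and 254), a ratio of -1.26 (-1.39 to -1.13) with no overlap. In macrophage-like cells it was 388 and 536 CPM, a ratio of 0.46 (0.26 to 0.68). Schwann-like cells had 571 CPM, and these held 44.0% of the model's Itgb1 UMIs. They were 32.4% of its cells and, with 4695056, the class with the most UMIs of all genes.

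Itgb3 (chr11:104608000-104670476) and Itgb5 (chr16:33829665-33949338) encode the β3 and β5 partners of αv. Itgb3 was sparse, with 143 UMIs in all. In the endothelial-like class it reached 64.9 CPM for WB1P and 51.3 for WB1P-Myc on 4 and 9 UMIs, 34.3 and 30.2 in fibroblast-like cells, and 20.6 in WB1P epithelial-like cells against 1.77 in those of WB1P-Myc (42 and 6 UMIs, ratio -3.54, -5.06 to -2.30). Macrophage-like cells had 2 and 5 Itgb3 UMIs, 3.02 and 3.86 CPM. Itgb5 was highest in fibroblast-like cells, 271 CPM in WB1P (266, 279 and 273 in fractions 2 to 4) and 188 in WB1P-Myc (189, 202, 146 and 220), a ratio of -0.53 (-0.84 to -0.21). Macrophage-like cells had 124 and 155 CPM of Itgb5. Epithelial-like cells had 42.6 and 16.8 CPM, a ratio of -1.34 (-1.85 to -0.84), and their fractions overlapped only because WB1P fraction 1 stood at 11.2.

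Itga4 (chr2:79255426-79333114) and Itga9 (chr9:118606709-118901003) encode the α4 and α9 subunits that bind the thrombin-exposed site. Itga4 was found mainly in macrophage-like cells, at 25.7 CPM in WB1P and 33.2 in WB1P-Myc, which held 94.4% and 70.5% of its 18 and 61 UMIs, and every other class was at or under 2.08 CPM. In endothelial-like cells it had 0 UMIs, which allows up to 48.7 CPM in WB1P and 17.1 in WB1P-Myc, so a lower level than in macrophage-like cells is not shown there for WB1P. In the 2040715 UMIs of WB1P epithelial-like cells it had 0, which allows a level of up to 1.47 CPM. Within the class the T or NK-like cells of WB1P-Myc stood at 86.4 CPM on 7 UMIs, and macrophage markers summed to 2098 CPM in these cells. Itga9 was at 68.0 and 59.4 CPM in macrophage-like and 41.2 and 38.5 in fibroblast-like cells of WB1P and WB1P-Myc. The endothelial-like cells of WB1P had 114 CPM of Itga9, on 7 UMIs that all came from fraction 4. The ratio between models was 0.37 (-0.47 to 1.27) for Itga4 and -0.19 (-0.74 to 0.37) for Itga9 in macrophage-like cells, so a difference was not detectable at this depth.

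**Figure D5:**
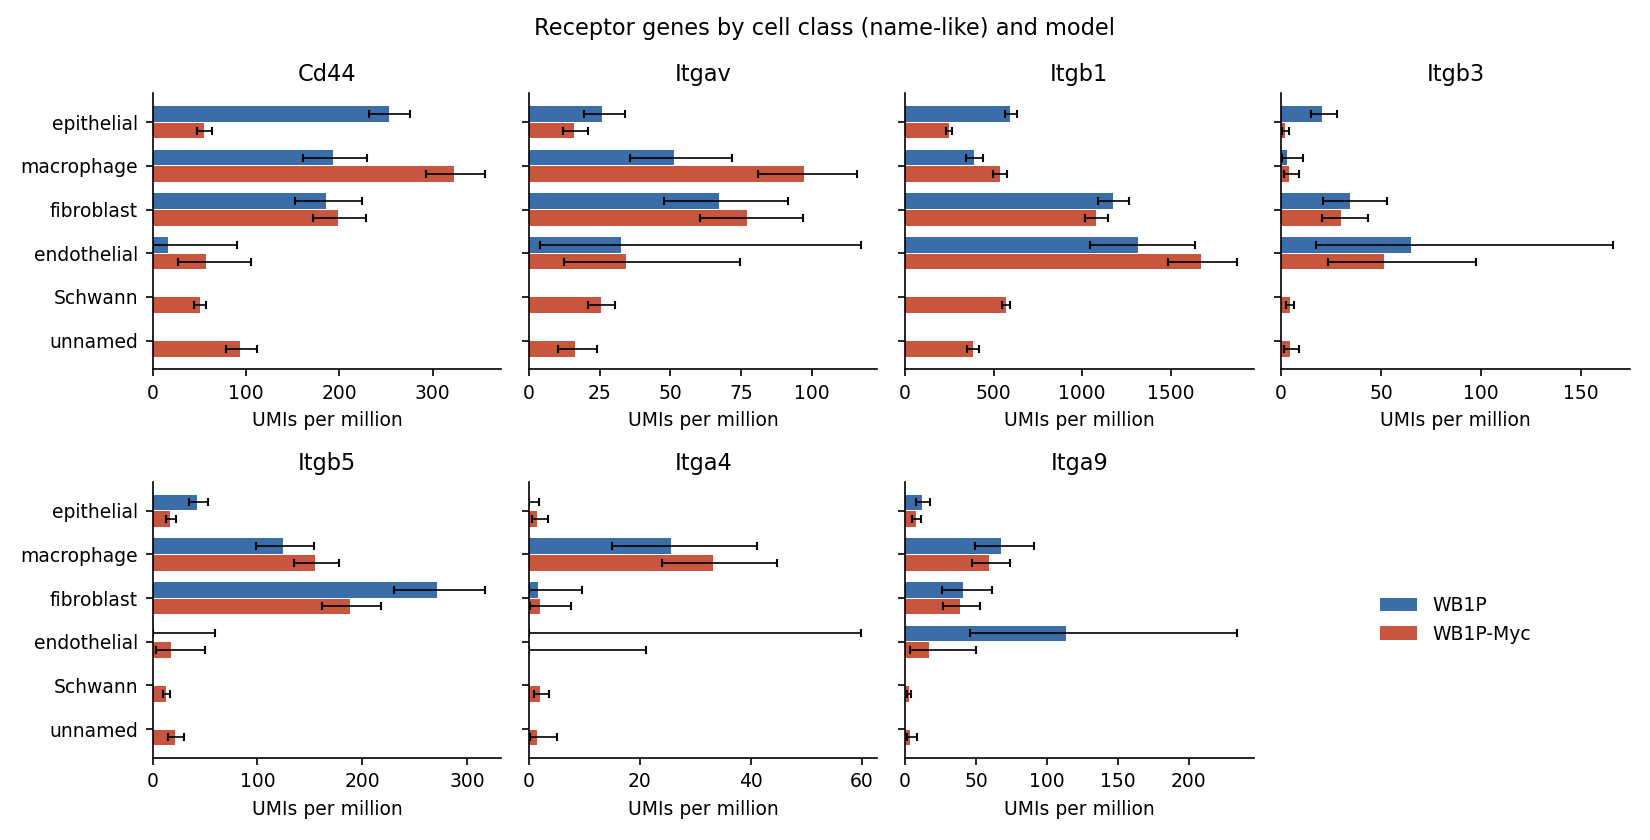
Level of the 7 receptor genes in CPM by cell class (rows) in WB1P (blue) and WB1P-Myc (red), with a separate linear axis from 0 for each gene and 95% Poisson intervals. Cd44 in epithelial-like cells is at 253 in WB1P and 55.2 in WB1P-Myc, and Itga4 is at 25.7 and 33.2 in macrophage-like cells and at most 2.08 in the other classes.

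Over all genes with at least 50 UMIs in the 2 models together, a 2-fold rule gives the background for these differences. In epithelial-like cells 16.1% of 8686 genes were at least 2-fold lower in WB1P-Myc and 15.3% at least 2-fold higher. Of the 6 genes of the set that could be counted there, Spp1, Cd44, Itgb1 and Itgb5 were lower by this rule and 0 were higher. Their median log2 ratio was -1.30, against 0.02 over all genes. In macrophage-like cells 3.11% of 5175 genes were lower and 5.49% higher, and 0 of 7 were past the rule in either direction. This call depends on the scaling: the Spp1 ratio there was -1.02 with TMM factors and -1.05 with DESeq2 size factors, and 1 of 7 was then lower. In fibroblast-like cells 1.97% of 4418 genes were lower and 2.72% higher, and of 6 counted only Spp1 was lower. The members were chosen with these levels known, so the counts are read as a description.

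The receptor genes were also compared with the other cells of the same model. In WB1P, epithelial-like cells held 2040715 of the 3346429 UMIs of all genes, and of the receptors they held 68.6% of Cd44, 61.8% of Itgb3, 54.3% of Itgb1, 41.4% of Itgav, 26.6% of Itgb5, 24.0% of Itga9 and 0% of Itga4 UMIs. By a 2-fold rule, 3 of 6 counted in WB1P fibroblast-like cells (Itgav, Itgb1 and Itgb5) were higher, against 11.2% of 7407 genes. Itgav (log2 ratio 1.06), Itgb1 (1.06) and the uncalled Itgb3 (0.98) lay at the threshold of this rule: without WB1P fraction 2 Itgav was at 0.85 and Itgb3 at 1.20, and without fraction 3 Itgb1 was at 0.97. Itgb5, at 2.15, stayed past it. The same rule gave 1 of 6 in macrophage-like cells (Itga9, 12.0% of genes), 3 of 6 in endothelial-like cells (Itgb1, and Itgb3 and Itga9 on 4 and 7 UMIs, 14.1%) and 0 of 6 in epithelial-like cells (18.5%). In WB1P-Myc, 6 of 7 were higher in fibroblast-like cells (all but Itga4, 14.0% of 11484 genes), 5 of 7 in macrophage-like cells (all but Itgb1 and Itgb3, 15.5%), 2 of 7 in endothelial-like cells (Itgb1 and Itgb3, 17.7%) and 0 of 7 in epithelial-like cells (5.63%). Among classes of at least 50 cells, Spp1 and Cd44 were highest in epithelial-like cells in WB1P, as were 46.9% of 7301 genes. In WB1P-Myc, Spp1, Cd44, Itgav, Itga4 and Itga9 were highest in macrophage-like cells, as were 16.8% of 11484 genes.

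The other genes of the pathway were read from 7 lists. Their counts between models stand against the all-gene shares of the same 2-fold rule, 16.1% lower and 15.3% higher in epithelial-like, 3.11% and 5.49% in macrophage-like and 1.97% and 2.72% in fibroblast-like cells. Of the other bone and tooth matrix proteins of the osteopontin family, 2 of 4 were in the tables and none had enough counts for the comparison between models. Ibsp, bone sialoprotein, was at 56.4 CPM in Schwann-like cells of WB1P-Myc on 265 UMIs and at most 6.31 in the other classes. It was seen in 3 of the 57 Schwann-like cells with at least 5 Spp1 UMIs and in 12 of the 957 with none.

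Of the enzymes that cleave or modify osteopontin, 11 of 12 were in the tables. In epithelial-like cells 2 of 4 counted, Plau and Mmp3, were lower in WB1P-Myc. In macrophage-like cells Mmp9 was higher and Mmp12 lower of 7 counted, and in fibroblast-like cells 0 of 2 were past the rule. Mmp12, the macrophage elastase, was at 1152 CPM in macrophage-like cells of WB1P and 474 in those of WB1P-Myc. Acp5, the phosphatase that removes phosphates from osteopontin, was at 439.8 and 459.9 CPM there, and Mmp3, stromelysin, was at 1480.2 and 1011 CPM in fibroblast-like cells.

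Of the integrin subunits that pair with those described, 3 of 4 counted in epithelial-like cells (Itga3, Itga6 and Itga8) were lower in WB1P-Myc, and 0 of 1 and 0 of 2 in macrophage-like and fibroblast-like cells were past the rule. Itga6, the laminin-binding α6 subunit, was at 120.1 CPM in WB1P and 57.6 in WB1P-Myc epithelial-like cells. Of the integrin adhesion machinery, 8 of 10 counted were lower in epithelial-like cells, among them Tln1 (talin, 161 and 74.4 CPM), Fermt2 (kindlin-2, 240.1 and 81.8) and Lims1 (75.5 and 34.6), against 0 of 6 and 0 of 7 past the rule in macrophage-like and fibroblast-like cells. The median ratio of the list in epithelial-like cells was -1.26, against 0.02 over all genes.

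Of the other ligands of these receptors and the hyaluronan synthases, 6 of 7 counted were lower in epithelial-like cells of WB1P-Myc, 1 of 4 in macrophage-like cells (Mfge8) and 1 of 9 in fibroblast-like cells (Has1). Fibronectin, Fn1, stood at 1038 CPM in WB1P and 229.7 in WB1P-Myc epithelial-like cells, and at 2237 and 2338 in fibroblast-like cells. Postn, periostin, stood at 3582 and 2747 CPM in fibroblast-like cells, where 8 of 10 counted genes of this list, Has1 and Has2 among them, in WB1P and 10 of 10 in WB1P-Myc were at least 2-fold above the other cells, against 11.2% and 14.0% of all genes.

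Of the 10 genes known from Spp1-rich macrophages, 3 were higher in WB1P-Myc macrophage-like cells (Gpnmb, Lpl and Ctsb) and 1 lower (Arg1), with a median ratio of 0.40 against 0.13 over all genes. Ctsb, the protease cathepsin B, stood at 2802 and 5684 CPM, while Apoe, the lipid carrier, stood at 19221 and 21389 and Cd63 at 2481 and 1965. In epithelial-like cells 5 of 8 counted were lower and 1, Lpl, higher, and in fibroblast-like cells 0 of 7 were past the rule. Of 7 factors known to act on the Spp1 promoter, 2 of 3 counted in epithelial-like cells, Runx1 and Runx2, were lower in WB1P-Myc. Binding to the promoter was not measured. Runx1 stood at 147 CPM in WB1P and 55.2 in WB1P-Myc epithelial-like cells, and at 287 and 326 in fibroblast-like cells. Mitf was higher in macrophage-like cells, 1 of 4 counted, and 0 of 3 were past the rule in fibroblast-like cells. Ets1 was highest in endothelial-like cells (454 and 673 CPM), and Spi1, the macrophage factor PU.1, stood at 212 and 174 CPM in macrophage-like cells.

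The genes whose levels were most like those of Spp1 were sought over the 9 class-by-model units with at least 50 cells, among 12217 genes. The highest Pearson correlations of log2(CPM + 10) were those of Dhrs9 (0.97), Fkbp2 (0.96), Gm11964 (0.95), Vegfa (0.95) and 2310015A10Rik (0.94). The units of a model share their libraries, so this is a description. Dhrs9, Gm11964 and 2310015A10Rik were at most at 10.3 CPM in any unit, so their likeness rests on few UMIs. Vegfa, the vascular growth factor, stood at 211 CPM in WB1P epithelial-like, 287 in WB1P macrophage-like and 118 in WB1P fibroblast-like cells, and at 28.9, 160.5 and 105 in the same classes of WB1P-Myc. Of the receptors Cd44 was the most like Spp1, at 0.81 and rank 75, followed by Itgb5 at 0.71.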

How the data were processed

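Single-cell 3′ transcripts were counted by Drop-seq in WB1P and WB1P-Myc tumours, as 4 droplet fractions per model sequenced on a HiSeq and a MiSeq, 16 tables in all. The deposited values are raw UMI counts per gene symbol and barcode, 1000 barcodes per table, made by the authors with dropseq-tools. The submitters' processing notes name Scanpy and mm10, and no source used here gives the aligner. No cell annotation was used. The study's text names more than 1 mouse per model, and the fractions are not assigned to mice.

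HiSeq barcodes with 450 to 4000 genes and under 20% mitochondrial UMIs were kept. After scaling each cell to 10000 UMIs and taking logarithms, cells were clustered with scanpy 1.11.5 (30 components, 20 neighbours, Leiden resolution 0.3) on genes without the 8 members. Clusters were named from marker lists, with at least 3 leading markers. The members, marker lists and pathway lists were chosen with earlier results of these data known. All 8 members were named, with at most 3 genes of each pathway list by their highest level, the 5 genes most like Spp1, and others where a count was small. Levels are summed counts per 1000000 UMIs (CPM) with exact Poisson intervals, shares have Clopper-Pearson intervals, and ratios have conditional binomial intervals. Genes entered counts with at least 50 UMIs in the groups compared. With 1 suspension per model there was no test and no p-value. Doublets were called with scrublet in each fraction (48 of 4798 cells) and were kept. Scripts were tested on simulated data. edgeR 4.0.16 (TMM) and DESeq2 1.42.0 supplied alternative scaling factors for the counts. Of the 8 members, 1 (Itgb3) had no entry in the promoter table.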

Additional observations from a re-analysis of the deposited data

Results flagged for a closer look

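Among 39 groups of 4 fractions, 8 had a fraction far from the other 3 by Dixon's criterion on the gap over the range, where chance gives about 1 in 20. Spp1 in WB1P-Myc macrophage-like cells was 3378 CPM in fraction 4, above the 2174 to 2216 of the other 3. Itgav was 31.2 CPM in fraction 4 of WB1P epithelial-like cells, 23.1 in fraction 2 of WB1P-Myc epithelial-like cells and 90.8 in fraction 3 of WB1P-Myc fibroblast-like cells. The other flags came from WB1P fraction 1, which had 2 macrophage-like, 2 fibroblast-like and 1 endothelial-like cells: Cd44 and Itgb1 were 0 CPM in its macrophage-like cells, Itgb5 was 0 CPM in its fibroblast-like cells, and Itgb1 was 5764 CPM in its endothelial-like cell.

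Of 24 class contrasts of the 8 genes that both models allowed, 4 had one sign in every fraction of WB1P that gave a value and the other sign in every fraction of WB1P-Myc. No share over all genes was taken for this rule, so the count is a description, and the differences were not tested. All 4 were taken against epithelial-like cells, which lay mostly in cluster 1 in WB1P and in cluster 5 in WB1P-Myc. Macrophage-like over epithelial-like cells, the log2 ratio was -0.93 in WB1P and 4.46 in WB1P-Myc for Spp1, -0.39 and 2.55 for Cd44, and -0.62 and 1.11 for Itgb1. Fibroblast-like over epithelial-like cells, the log2 ratio of Cd44 was -0.45 in WB1P and 1.85 in WB1P-Myc. Except for Spp1 the WB1P signs rest on fractions 2 to 4, and the Spp1 sign in WB1P fraction 1 rests on 2 macrophage-like cells.

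Spp1 was also present in barcodes outside the cells analysed. It stood at 6913 CPM in 40 WB1P barcodes with over 4000 genes, at 152 CPM in 134 such WB1P-Myc barcodes, and at 2674 CPM in WB1P barcodes with fewer than 200 genes.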

How the results depend on the processing

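Epithelial-like cells held the most Spp1 UMIs of WB1P in 16 of 16 settings and had its highest level in 15, the exception being classes set from marker UMIs with no clustering. Macrophage-like cells had the highest Spp1 level of WB1P-Myc in 16 of 16 settings and the most UMIs in 15, the exception being the MiSeq tables. None of the ratios recomputed changed sign, but the order of fibroblast-like and Schwann-like Spp1 levels in WB1P-Myc did with the MiSeq tables (177 CPM on 21 UMIs, and 698 CPM). Of 157 alternatives of the main results 141 stayed within the spread between fractions (for counts of genes, within 1.5 times), as did 173 of 192 receptor ratios. These counts include the settings that leave out 1 fraction, which share most of their data with the main values. The spread also includes WB1P fraction 1 with its 65 cells, and was 17.5 points for the WB1P epithelial-like share. The counts are therefore no measure of robustness. The cause of the shifts past the spread was not tested unless named. With classes from marker UMIs the epithelial-like share in WB1P was 44.0%, the macrophage-like over epithelial-like log2 ratio in WB1P -0.39 and the fibroblast-like ratio between models -3.57. With the MiSeq tables the macrophage-like share in WB1P-Myc was 35.0%, its ratio over epithelial-like cells 5.05 and the fibroblast-like ratio between models -4.55. Thinning to 600 UMIs gave 55.7% and 3.64, and a mean over cells 3.71, for the WB1P-Myc share and ratio. With no minimum count, genes at least 2-fold higher and lower in WB1P-Myc were 5064 and 3907 in epithelial-like cells (1332 and 1402 with it), 4134 and 1855 in macrophage-like cells (284 and 161) and 3445 and 2080 in fibroblast-like cells (120 and 87), since genes with few UMIs then enter. DESeq2 size factors gave 187 higher in macrophage-like cells. Leaving out 1 fraction, the Spp1 ratio between models ran from -6.55 to -6.12 in epithelial-like, -2.94 to -2.16 in fibroblast-like and -1.08 to -0.75 in macrophage-like cells, the WB1P epithelial-like share from 70.0 to 80.3% and the WB1P-Myc macrophage-like share from 44.6 to 49.1%. Leaving out barcodes 1 base from a deeper one (169 cells), added after seeing the data, was among these settings. No paired analysis was possible because the fraction numbers of the 2 models mark fractions of separate suspensions and no test was made. Itgb3, Itga4 and Itga9, with 79 to 260 UMIs, are the members most limited by depth.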
